A study of Mus musculus with 8 samples.

Results

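The genes described here encode the subunits of voltage-gated sodium and calcium channels and of all classes of potassium channel. They were chosen by gene symbol alone (Scn genes ending in a or b, Cacna, Cacnb and Cacng genes, and every Kcn gene with a number), which took 131 of the 18561 genes of the deposited table. The cells were enteric neural crest cells, which migrate along the gut and give rise to enteric neurons and glia, sorted from dissociated mouse gastrointestinal tracts at embryonic day 14.5 with antibodies against CD271 and CD57. Of 8 libraries, 5 carried the genotype label Emb knockdown and 3 the label WT, and each was made from a tube of about 200 cells. Emb encodes embigin, a membrane glycoprotein of the immunoglobulin superfamily that escorts monocarboxylate transporters, and the study asked what its loss does to these cells as they develop. How the knockdown was made, in which cells it acts and whether tubes came from separate embryos are not given in the sources used here, so p-values measure the spread between libraries, which may be technical.

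A voltage-gated channel opens when the membrane depolarises: sodium channels carry the upstroke of the action potential, calcium channels turn it into calcium entry, and potassium channels end it. A pore subunit decides which ion passes, and accessory subunits decide how much of it reaches the surface and how it gates. Inward rectifiers and tandem-pore channels are potassium channels without a voltage sensor and set the resting potential. In the enteric nervous system the action potentials of developing neurons begin before birth, and the surrounding smooth muscle, interstitial cells and macrophages use channel sets of their own.

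Library totals ran from 20116607 to 26959265 counts. Emb, the targeted gene, measured 138, 148, 19.8, 10.3 and 11.98 TPM in the libraries labelled knockdown 1 to 5, against 10.4, 12.7 and 10.8 TPM in WT 1 to 3. It was within or above the WT range in 4 of the 5 libraries labelled knockdown and just under it in the other, so the genotype is given throughout as a label. Where only a number is given (libraries 1 to 5), it is that of a library labelled knockdown. The libraries labelled knockdown 1 and 2 stood apart. Their leukocyte markers (12 genes, among them Ptprc, Csf1r and C1qa) summed to 25100 and 21100 TPM, against 632 to 862 TPM in WT, and their neuron markers (12 genes) to 6.5 and 7.7 TPM, against 1850 to 1980 TPM in WT. Snap25 was at 0 in both, and Sox10, a defining gene of neural crest progenitors, was at 2.07 and 0 TPM. Progenitor markers summed there to 62.9 and 54.1 TPM, mostly Ednrb at 52.0 and 52.01 TPM, against 1470 to 1710 TPM in WT. Glia markers (9 genes) summed to 80 and 59.5 TPM, mostly Cnp at 61.86 and 57.87 TPM, against 489 to 499 TPM in WT. Those 2 libraries were therefore low in summed markers of the labelled cell type. Each comparison is given for all 8 libraries and for 6 libraries, without them. The libraries labelled knockdown 3 to 5 also differed from WT in markers: progenitor markers (10 genes) summed to 412 to 499 TPM, against 1470 to 1710 TPM in WT, neuron markers to 553 to 1180 TPM, against 1850 to 1980 TPM in WT, and leukocyte markers to 2110 to 3630 TPM, against 632 to 862 TPM in WT. In the comparison of 6 libraries 8 of 10 progenitor, 4 of 12 neuron and 5 of 9 glia markers passed the test as lower, and 11 of 12 leukocyte, 7 of 10 mesenchyme and 3 of 4 tested pericyte markers as higher. Of the other lists, 9 of 10 endothelium markers were lower, and 1 of 7 smooth muscle, 1 of 3 interstitial cell of Cajal and 0 of 4 tested mast cell markers were higher. Mesenchyme markers summed to 1420 to 1850 TPM in libraries 3 to 5 and 851 to 1490 TPM in WT. Pericyte markers summed to 36.6 to 51.1 TPM in libraries 3 to 5 and 21 to 33.5 TPM in WT. In such bulk samples fewer cells of a type and less RNA per cell cannot be told apart, and the part of these shifts in the results on channel genes was not tested.

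Of the 131 channel genes, 57 (43.5%) were expressed in WT at a mean of 1 TPM or more, against 72.6% of all genes of the table. TPM, a share of all transcripts, is counted after division by gene length, so it can be compared between genes. Of the 57, 48 reached 1 TPM in every WT library. They comprised 5 of 14 sodium channel genes, 10 of 26 calcium channel genes and 42 of 91 potassium channel genes. By class the number ran from 10 of 12 Kv accessory genes, 3 of 4 sodium channel beta genes and 8 of 12 genes of calcium- or sodium-activated potassium channels to 2 of 10 sodium channel alpha genes and 2 of 15 inward rectifier genes. The 131 genes together held 142, 180, 415, 426 and 612 TPM in the libraries labelled knockdown 1 to 5, against 574, 568 and 525 TPM in WT 1 to 3. Library 5 was above all WT libraries and libraries 1 to 4 below them. By number of channel genes at 1 TPM or more the libraries labelled knockdown held 17, 22, 52, 48 and 62, against 57, 59 and 55 in WT. Just inside the limit of 1 TPM lay Kcnn2 at 1.01, Kcnh4 at 1.07, Scn8a at 1.12 and Kcnh8 at 1.18 TPM, and just outside it Kcnd1 at 0.983, Kcnu1 at 0.94 and Kcnj14 at 0.937 TPM.

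**Figure D1:**
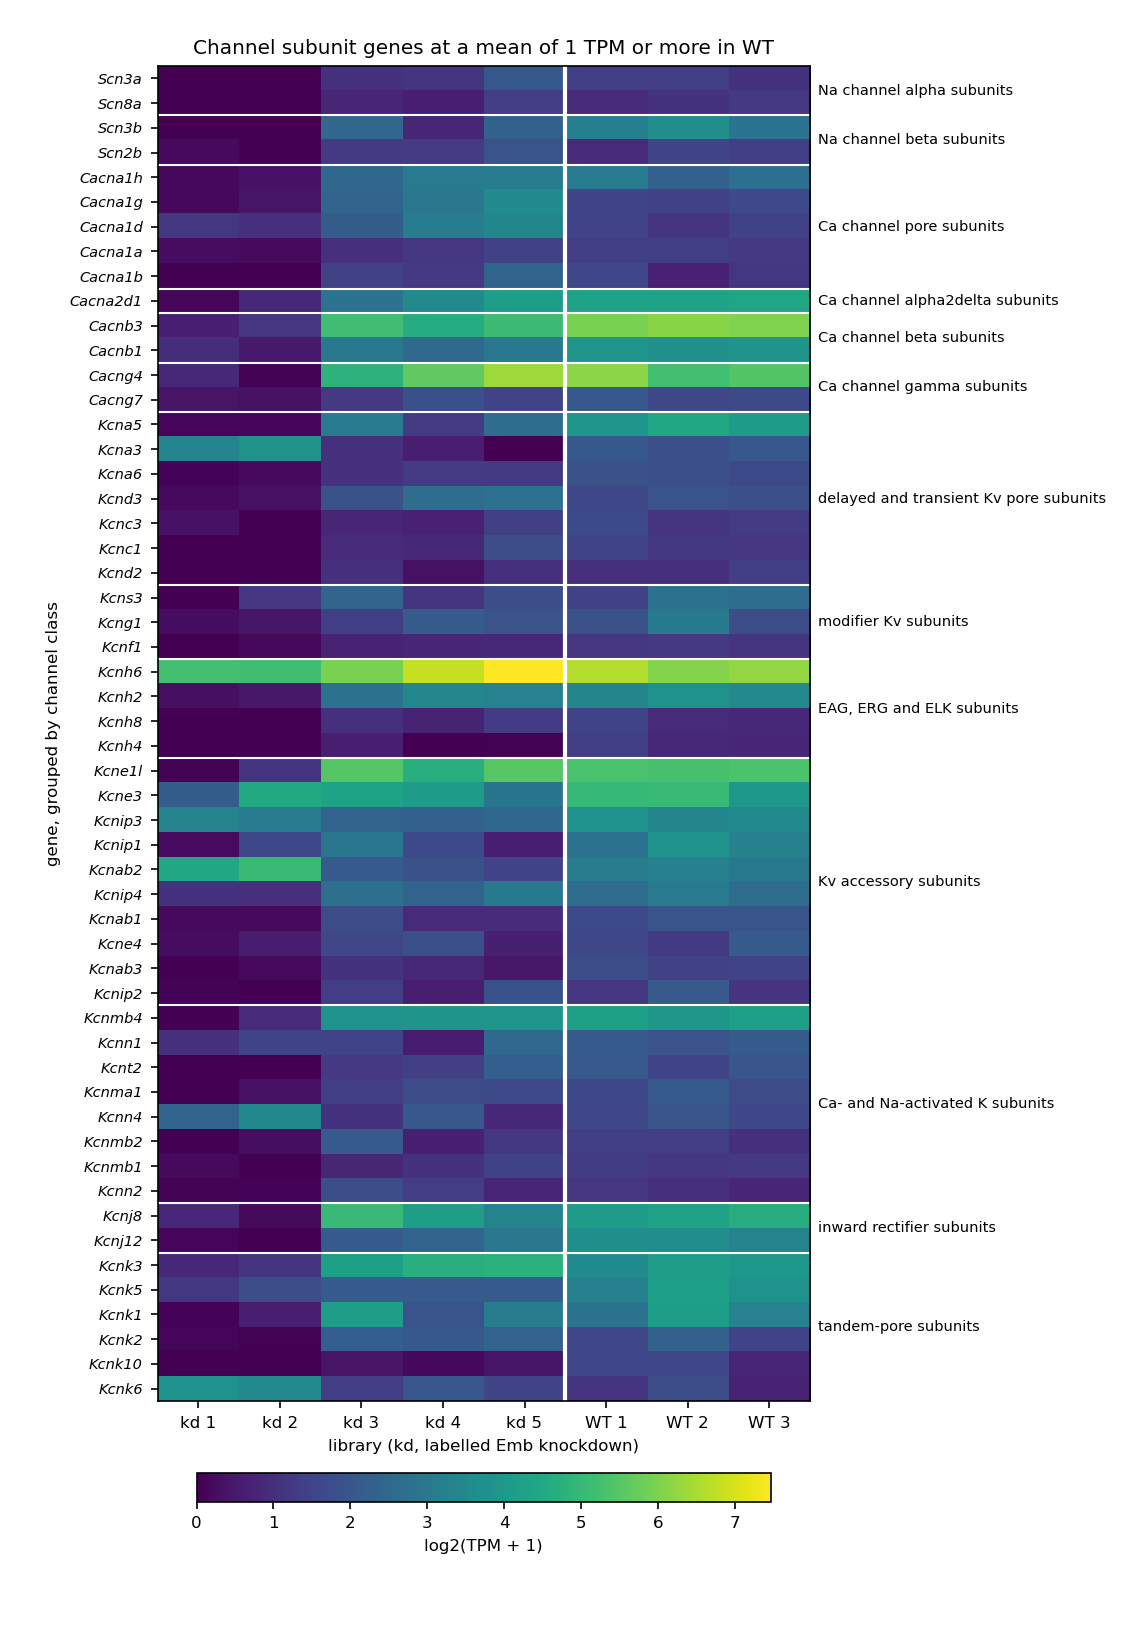
TPM of 54 of the 57 channel genes expressed in WT, on a log2(TPM + 1) colour scale, with 1 row for each gene grouped by channel class and 1 column for each library, the 5 labelled knockdown left of the 3 WT. Libraries labelled knockdown 1 and 2 are dark in most rows, with 46 and 40 of the 57 genes under 1 TPM, and the bright row near the middle in all columns is Kcnh6, at 35.3 to 177 TPM.

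Without the libraries labelled knockdown 1 and 2, 99 of the 131 channel genes had counts high enough for edgeR's filter, and 8 passed a Benjamini-Hochberg adjusted p of 0.05 as higher and 6 as lower than in WT. Those shares, 8.08% and 6.06%, were smaller than among all 15115 genes tested, of which 11.1% were called higher and 9.37% lower. Called, where no other tool is named, means called by this edgeR fit. The median log2 fold change was 0.16 over the 99 channel genes and 0.02 over all genes. With scaling by total counts alone, 45.4% of all calls were higher, against 54.1% with the main scaling, and the channel genes gave 8 higher and 7 lower, against 9.56% and 11.5% of all genes. On log2(FPKM + 1) with limma 38.4% of all calls were higher, and channel genes gave 4 higher and 9 lower, against 8.1% and 13.0% of all genes. On log2(TPM + 1) the median difference, libraries 3 to 5 minus WT, was -0.29 over all genes tested. The median log2 fold change on counts was 0.02, so TPM ran lower in libraries 3 to 5, by other amounts in single genes. Other tools called more genes: DESeq2 called 11 channel genes higher and 7 lower, against 16.2% and 13.8% of all genes, and limma voom with quality weights 19 higher and 13 lower, against 23.3% and 22.2% of all genes. All 14 genes called by edgeR were also called by both, and 10 of them by limma on log2(FPKM + 1). Groups did not overlap in scaled counts for 12 higher and 19 lower channel genes (12.1% and 19.2%, against 20.5% and 22.8% of all genes). All 14 calls were lost when the library labelled knockdown 4 was left out. The number called was 24 without library 3, 9 without library 5, 6 without WT 1, 3 without WT 2 and 2 without WT 3. At an unadjusted p under 0.05, 15 channel genes were higher and 9 lower (15.2% and 9.09%, against 19.8% and 17.7% of all genes). Of the 57 expressed genes, 5 were called higher, 6 lower and 46 were not called.

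**Figure D2:**
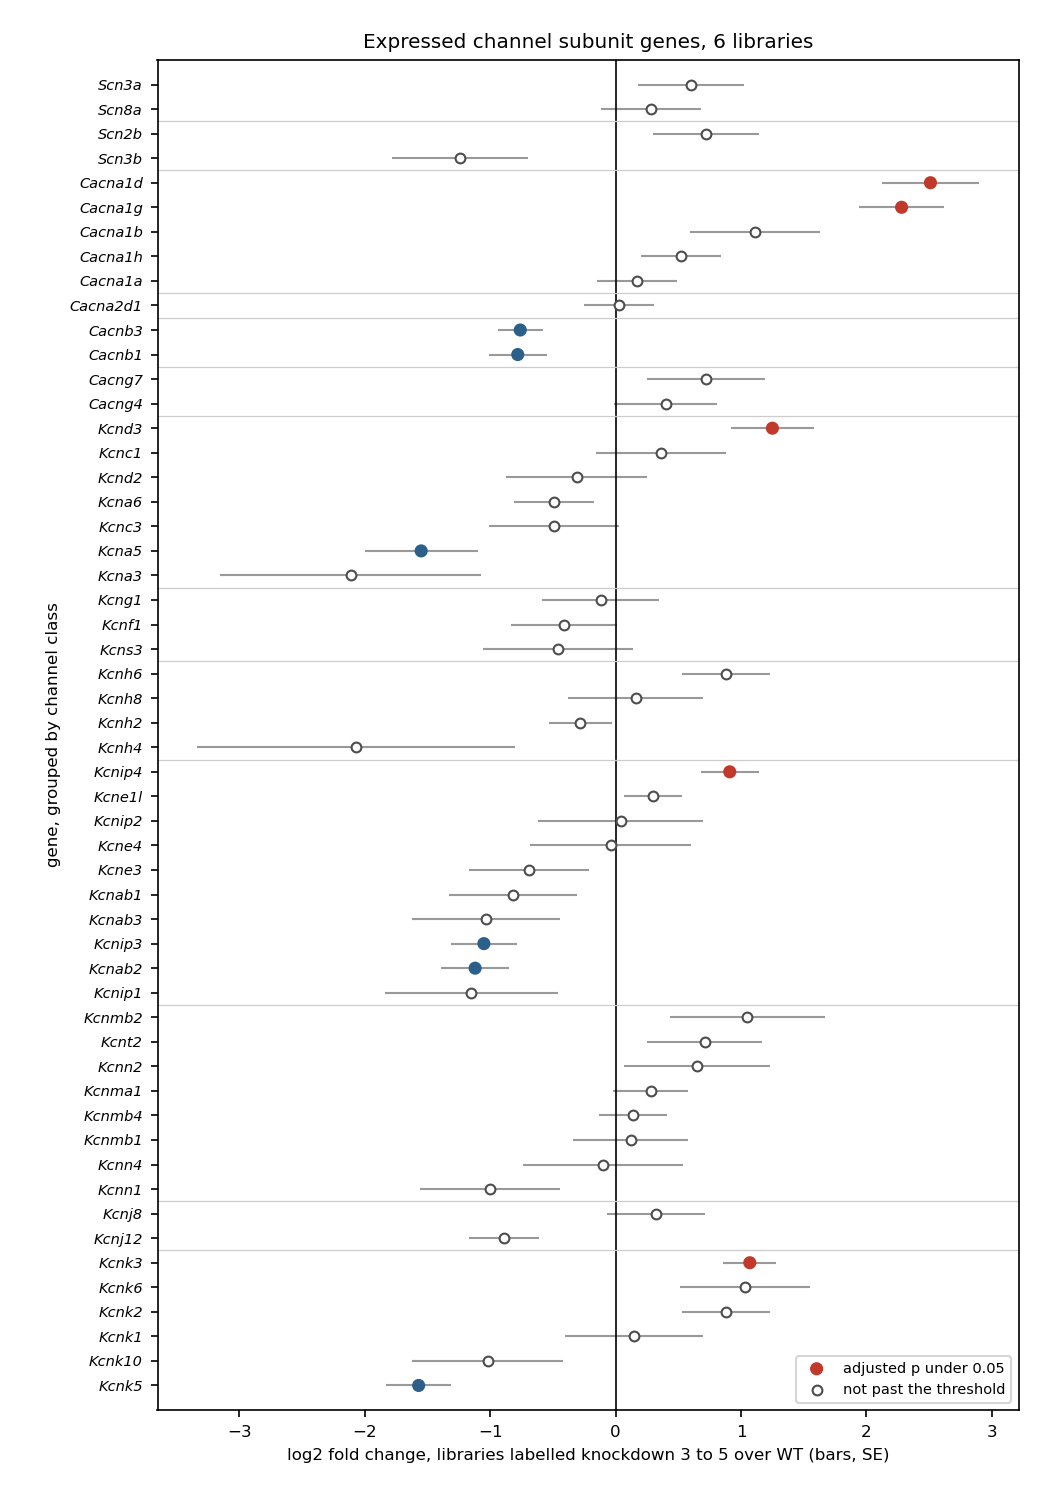
Log2 fold change of 54 of the 57 expressed channel genes, libraries labelled knockdown 3 to 5 over WT, with its standard error as a bar, by channel class. Filled points passed the adjusted p of 0.05: 5 lie right of 0 (red) and 6 left of it (blue), and Cacna1d at 2.51 and Cacna1g at 2.28 lie farthest right.

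Sodium channels are built of a large alpha subunit, which forms the pore, and small single-pass beta subunits. Scn3a, the alpha subunit typical of embryonic neurons, measured 0, 0, 1.1, 1.19 and 3.15 TPM in the libraries labelled knockdown 1 to 5, against 1.64, 1.6 and 1.14 TPM in WT 1 to 3. Scn8a, the main alpha subunit of mature axons, measured 0.01, 0, 0.74, 0.53 and 1.58 TPM in those labelled knockdown, against 0.86, 1.15 and 1.35 TPM in WT. Both were near or at 0 in libraries 1 and 2 and overlapped WT in 3 to 5. Scn9a, a pore of peripheral sensory and autonomic neurons, averaged 0.823 ± 0.229 TPM in WT (SD, n = 3). Scn3b, a beta subunit, measured 0, 0, 4.58, 0.75 and 4.02 TPM in the libraries labelled knockdown, against 8.27, 11.9 and 6.23 TPM in WT. All 5 lay below WT, but the log2 fold change of -1.24 ± 0.54 (SE) in 6 libraries missed the threshold (adjusted p = 0.131), which voom passed (-2.32, adjusted p = 0.00923). Scn2b averaged 1.92 ± 0.796 TPM in libraries 3 to 5 and 1.49 ± 0.542 TPM in WT. None of the 9 sodium channel genes tested was called by edgeR. Counts of 0 in a library allow up to 3 counts, which is 0.0966 to 0.155 CPM.

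Of the calcium channel pores 7 were tested in 6 libraries, and Cacna1g, Cacna1d and Cacna1c rose. Of the beta subunits 4 were tested, and Cacnb3 and Cacnb1 fell and Cacnb2 rose. Of all genes tested 11.1% were called higher and 9.37% lower, and whether these classes differ from other genes was not tested. Cacna1g, a T-type pore that opens near the resting potential (chr11:94408391-94474400, GRCm38.p6), measured 0.12, 0.34, 4.39, 6.81 and 11.1 TPM in the libraries labelled knockdown 1 to 5, against 1.98, 1.72 and 2.14 TPM in WT 1 to 3. Cacna1d, an L-type pore that supports pacemaking (chr14:30039941-30491156), measured 1.27, 1.01, 3.62, 7.76 and 9.73 TPM in those labelled knockdown, against 1.84, 1.21 and 1.7 TPM in WT. Cacna1c, the L-type pore of smooth and cardiac muscle (chr6:118587240-119197384), measured 0.08, 0.16, 1.68, 2.19 and 2.97 TPM in those labelled knockdown, against 0.94, 0.9 and 0.88 TPM in WT. In all 3 genes libraries 3 to 5 lay above every WT library, with library 5 highest, and libraries 1 and 2 lay below WT apart from Cacna1d in library 1. The log2 fold change in 6 libraries was 2.28 ± 0.34 for Cacna1g (SE, edgeR's quasi-likelihood test, adjusted p = 0.00792), 2.51 ± 0.39 for Cacna1d (adjusted p = 0.0091) and 1.65 ± 0.26 for Cacna1c (adjusted p = 0.00928). With all 8 libraries they were 1.57 ± 1.21, 1.95 ± 0.75 and 0.97 ± 1.02, and edgeR called none of them. In the 8 libraries DESeq2 called Cacna1d (1.95, adjusted p = 0.0499), and voom called Cacna1d (2.35, adjusted p = 0.00865) and Cacna1g (1.84, adjusted p = 0.0489). Cacna1d and Cacna1g kept the call without any single library but the one labelled knockdown 4 (adjusted p = 0.0563 and 0.0503), while Cacna1c lost it also without WT 3 (adjusted p = 0.0539). Smooth muscle markers summed to 1080 to 2420 TPM in libraries 3 to 5 and 1550 to 2610 TPM in WT. On counts the median log2 fold change of these 7 markers was 0.35, with 1 called higher. Their part in the calls of these pores was not tested. Exons of Cacna1d share 589 bases with Chdh on the opposite strand, 4.67% of its exon length, and reads there cannot be told apart without strand.

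The other expressed pores were not called by edgeR. Cacna1h, another T-type gene and the highest pore in WT, averaged 6.64 ± 1.78 TPM in libraries 3 to 5 and 5.76 ± 1.85 TPM in WT (SD, n = 3 each), and voom called it higher (0.83, adjusted p = 0.0261). Cacna1b, the N-type pore of transmitter release, measured 0, 0.01, 1.74, 1.36 and 4.32 TPM in the libraries labelled knockdown, against 1.99, 0.61 and 1.3 TPM in WT. Cacna1a, the P/Q-type pore of synaptic terminals, averaged 1.36 ± 0.383 TPM in libraries 3 to 5 and 1.53 ± 0.157 TPM in WT. The order of pore levels thus differed: in WT Cacna1h was above Cacna1g, and in libraries 3 to 5 Cacna1g and Cacna1d lay beside Cacna1h within the spread. The summed TPM of all 10 pore genes was 3.74, 3.54, 17.8, 27.5 and 38.6 in the libraries labelled knockdown, against 16.8, 10.4 and 13.3 in WT.

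Beta subunits sit in the cytoplasm, bind the pore and carry it to the surface. Cacnb3 (chr15:98628436-98644536), the second highest of all channel genes in WT, measured 0.59, 1.26, 35.5, 23.9 and 33.6 TPM in the libraries labelled knockdown 1 to 5, against 61.4, 70.2 and 64.2 TPM in WT 1 to 3. Cacnb1 (chr11:98001508-98023034) measured 0.98, 0.42, 6.91, 4.85 and 6.89 TPM in those labelled knockdown, against 13.9, 12.4 and 13.6 TPM in WT. For both, all 5 libraries labelled knockdown were below all 3 WT libraries, with 1 and 2 lowest. The log2 fold change in 6 libraries was -0.76 ± 0.18 for Cacnb3 (adjusted p = 0.0233) and -0.78 ± 0.23 for Cacnb1 (adjusted p = 0.0479), and with 8 libraries -1.46 ± 1.05 and -1.41 ± 0.86, neither called. Cacnb2, at 0.28, 0.12, 0.53, 0.59 and 2.24 TPM in the libraries labelled knockdown, against 0.31, 0.16 and 0.29 TPM in WT, was called higher (log2 fold change 2.40 ± 0.71, adjusted p = 0.0454). Its mean rests on library 5. It was not called without library 4, library 5 or any 1 WT library, and limma on log2(FPKM + 1) did not call it. Cacnb3 lost its call without library 4 or any 1 WT library, and Cacnb1 without any 1 library but 3 and with no filter on low counts (adjusted p = 0.0521). The median log2 fold change over the 12 neuron markers in 6 libraries was -0.75, with 4 called lower. Medians of the marker lists ran from -1.83 (endothelium) to 2.24 (leukocyte). The part of these shifts in the results on beta subunits was not tested.

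Among the remaining calcium channel subunits edgeR made no call. Cacna2d1, the alpha2delta subunit that gabapentin binds, measured 0.08, 0.79, 6.13, 11.02 and 16.95 TPM in the libraries labelled knockdown, against 18.8, 19.2 and 20.3 TPM in WT. All 5 were below WT in TPM, yet in scaled counts the groups overlapped and the log2 fold change in 6 libraries was 0.03 ± 0.28. The gene length that its counts and FPKM imply differed as well, by a ratio of 1.42 in libraries 3 to 5 over WT. Cacng4, of the gamma subunit family that also escorts AMPA receptors, was the third highest channel gene in WT and measured 0.82, 0.03, 27.7, 49.5 and 82.8 TPM in the libraries labelled knockdown, against 71.6, 35.7 and 43.2 TPM in WT. Libraries 3 to 5 spread on both sides of WT. Cacng7, of the same family, averaged 1.94 ± 0.59 TPM in libraries 3 to 5 and 2.44 ± 0.638 TPM in WT, and voom called it higher on counts (1.09, adjusted p = 0.0316).

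**Figure D3:**
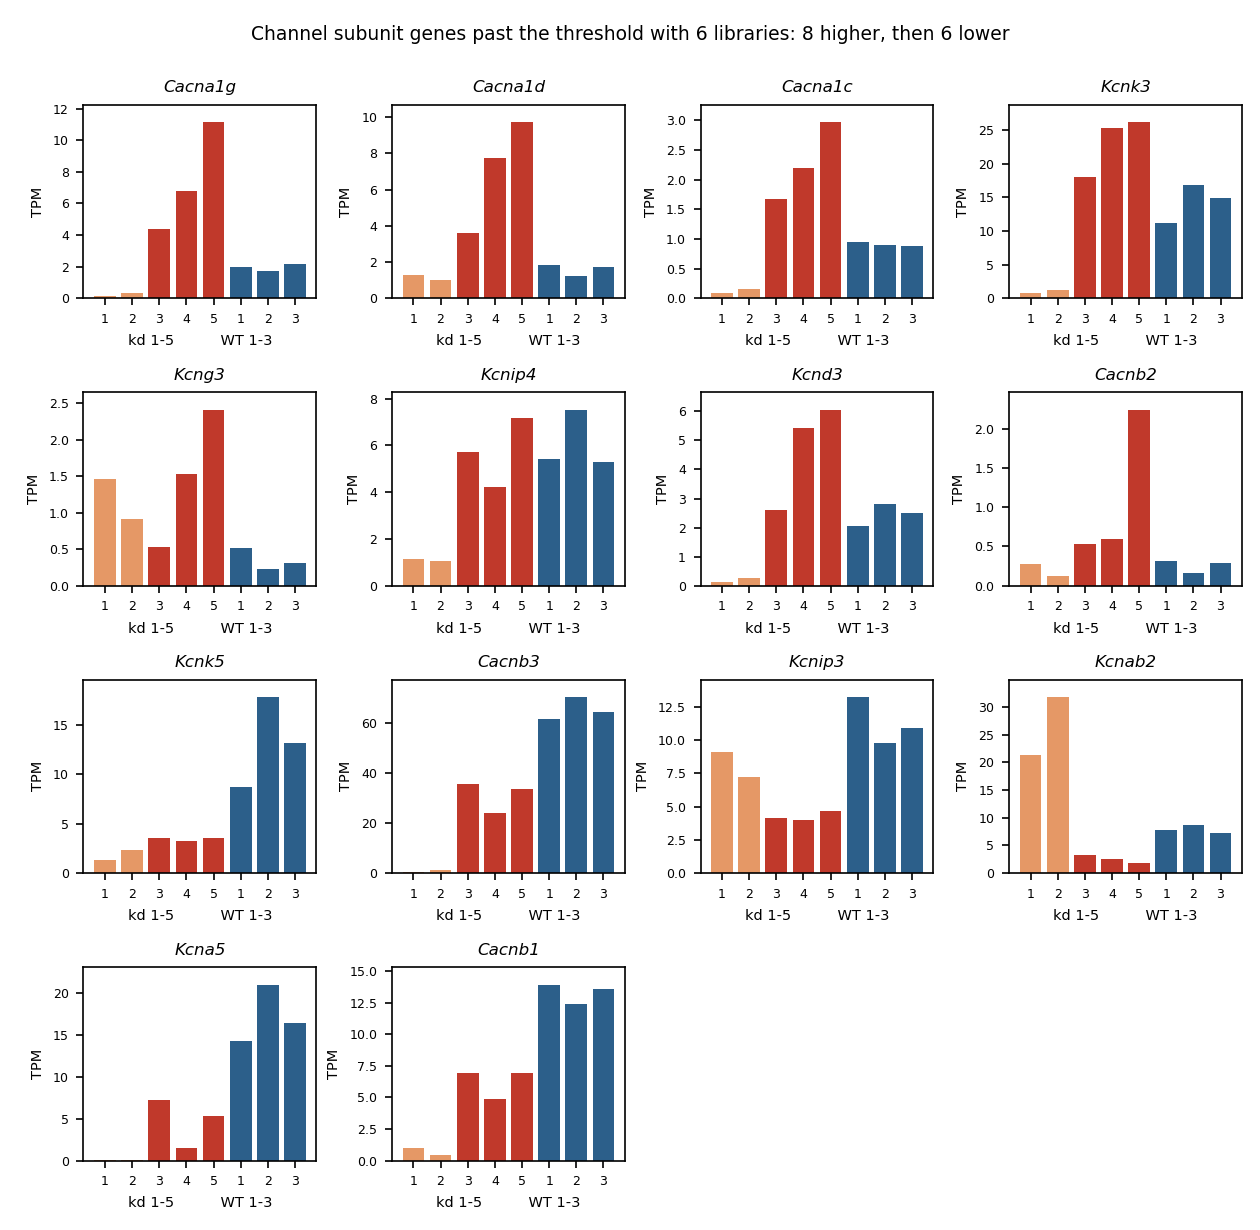
TPM in each library of the 14 channel genes called in 6 libraries, the 5 labelled knockdown left of the 3 WT and 1 panel for each gene. Bars are orange for libraries 1 and 2, red for 3 to 5 and blue for WT. Cacna1g, Cacna1d, Cacna1c and Kcnk3 stand above WT in libraries 3 to 5 only, whereas Kcng3 is also above it in 1 and 2 and Kcnab2 is highest in 1 and 2.

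Voltage-gated potassium (Kv) pores repolarise the membrane with different speeds. Kcna5 (chr6:126532551-126535555), a delayed rectifier known from smooth muscle, heart and macrophages, was the highest of the delayed and transient Kv pores in WT and measured 0.1, 0.07, 7.2, 1.46 and 5.32 TPM in the libraries labelled knockdown 1 to 5, against 14.2, 20.97 and 16.4 TPM in WT 1 to 3. It fell in 6 libraries, with a log2 fold change of -1.55 ± 0.45 (adjusted p = 0.0441), and all 5 libraries labelled knockdown were below WT. Kcnd3 (chr3:105451890-105674002), a rapidly inactivating A-type pore, measured 0.14, 0.26, 2.61, 5.43 and 6.06 TPM in those labelled knockdown, against 2.07, 2.8 and 2.51 TPM in WT. It rose in 6 libraries by 1.25 ± 0.33 (adjusted p = 0.0314), with library 3 inside the WT range in TPM and 4 and 5 above it. Both calls were lost without library 4, without library 5 or without any 1 WT library, and Kcnd3 was also not called on log2(FPKM + 1). Kcnd2, the other A-type pore expressed, averaged 0.783 ± 0.447 TPM in libraries 3 to 5 and 1.21 ± 0.341 TPM in WT. Kcna6 averaged 1.34 ± 0.235 TPM in libraries 3 to 5 and 2.46 ± 0.206 TPM in WT and was not called, and 39.6% of its exon length is shared with an antisense transcript.

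Modifier subunits are silent alone and change delayed rectifiers when they join them. Kcng3 (chr17:83574023-83631995) measured 1.46, 0.91, 0.53, 1.53 and 2.41 TPM in the libraries labelled knockdown, against 0.51, 0.23 and 0.31 TPM in WT. It was above WT in all 5, though by little in library 3, and is among the 3 called genes under 1 TPM in WT. Its log2 fold change was 2.39 ± 0.57 in 6 libraries (adjusted p = 0.024) and 2.41 ± 0.59 in all 8 (adjusted p = 0.141), so the size was alike with and without libraries 1 and 2. The call was lost on log2(FPKM + 1) and without library 4, library 5, WT 2 or WT 3. Kcns3 and Kcng1 averaged 2.67 ± 1.64 and 2.64 ± 0.964 TPM in libraries 3 to 5 and 4.4 ± 2.29 and 4.05 ± 2.71 TPM in WT. Kcnf1 averaged 0.743 ± 0.0702 TPM in libraries 3 to 5 and 1.26 ± 0.0907 TPM in WT. None of these 3 was called.

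KCNQ genes encode the M-current, a slow potassium current that restrains repeated firing. Kcnq3, a subunit of this current, averaged 0.967 ± 0.627 TPM in libraries 3 to 5 and 0.72 ± 0.212 TPM in WT and was not called. Of the EAG, ERG and ELK group, Kcnh6, an ERG pore (chr11:106008044-106035595), was the highest of all channel genes in WT. It measured 36.9, 35.3, 61.4, 111 and 177 TPM in the libraries labelled knockdown 1 to 5, against 96.0, 66.3 and 76.1 TPM in WT 1 to 3. Libraries 1 and 2 were lowest, yet at a level that no other channel gene reached there, where neuron markers summed to 6.5 and 7.7 TPM, and library 5 was highest. Its log2 fold change of 0.88 ± 0.35 in 6 libraries was not called (adjusted p = 0.107), whereas DESeq2 (0.88, adjusted p = 0.0385) and voom (0.99, adjusted p = 0.00615) called it higher. Kcnh2, the ERG pore of heart and smooth muscle, measured 0.23, 0.4, 6.01, 9.92 and 8.85 TPM in those labelled knockdown, against 9.49, 13.37 and 10.48 TPM in WT. It was thus nearly absent from libraries 1 and 2, unlike Kcnh6.

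Accessory subunits were the most broadly expressed class, with 10 of 12 genes at 1 TPM or more in WT. Kcnip3 (chr2:127456498-127522094), a calcium-binding partner of A-type pores also known as a transcriptional repressor, measured 9.12, 7.2, 4.17, 3.98 and 4.71 TPM in the libraries labelled knockdown 1 to 5, against 13.2, 9.76 and 10.9 TPM in WT 1 to 3. All 5 were below WT in TPM, and it fell in 6 libraries by 1.05 on the log2 scale (SE 0.26, adjusted p = 0.0261). Kcnab2 (chr4:152390744-152477549), a cytoplasmic beta subunit of Kv pores, measured 21.4, 31.8, 3.35, 2.59 and 1.83 TPM in those labelled knockdown, against 7.77, 8.63 and 7.18 TPM in WT. It was high in libraries 1 and 2 and low in 3 to 5, so its log2 fold change was -1.12 ± 0.27 in 6 libraries (adjusted p = 0.0264) and 1.29 ± 1.06 in all 8 (not called). Both calls were lost without library 4 or any 1 WT library. Kcnip4 (chr5:48389503-49525122), also a partner of A-type pores, was called higher on counts (0.91 ± 0.23, adjusted p = 0.0303) but measured 1.13, 1.06, 5.74, 4.22 and 7.19 TPM in those labelled knockdown, against 5.43, 7.53 and 5.3 TPM in WT. The groups overlapped in TPM, and limma on log2(FPKM + 1) gave 0.13 with an adjusted p of 0.69. The call was also lost without library 4, library 5 or any 1 WT library. The gene length implied by its counts and FPKM was 1.57 times as long in libraries 3 to 5 as in WT. The single-pass subunit genes Kcne1l and Kcne3 averaged 38.1 ± 11.3 and 14 ± 6.6 TPM in libraries 3 to 5 and 39.2 ± 0.71 and 26 ± 9.59 TPM in WT, with no call. Kcne1l was at 0.04 and 1.21 TPM in libraries 1 and 2, and Kcne3 at 3.59 and 22.5 TPM.

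None of the 12 genes of calcium- and sodium-activated potassium channels, all tested, was called by edgeR in 6 or in 8 libraries. Kcnmb4, the neuronal beta subunit of the large-conductance BK channel, was the highest of them and averaged 13.7 ± 0.42 TPM in libraries 3 to 5 and 16.6 ± 1.97 TPM in WT. Its exons share 20.8% and 10.7% of their length with antisense transcripts. Kcnma1, the BK pore, measured 0, 0.27, 1.64, 2.29 and 2.19 TPM in the libraries labelled knockdown, against 2.05, 3.37 and 2.31 TPM in WT. Kcnn4, the intermediate-conductance channel of blood cells, measured 4.25, 10.2, 1.12, 3.05 and 0.77 TPM in those labelled knockdown, against 2.04, 2.95 and 1.99 TPM in WT, and was above all others in libraries 1 and 2. Kcnn1, a small-conductance channel of neurons, averaged 2.41 ± 2.25 TPM in libraries 3 to 5 and 3.22 ± 0.393 TPM in WT. Voom called it lower in 6 libraries (-1.84, adjusted p = 0.0184) and in 8 (-1.51, adjusted p = 0.0489), and in 6 libraries it called Kcnmb3 (1.09, adjusted p = 0.0414) and Kcnn3 (0.94, adjusted p = 0.0479) of this class higher. Kcnt2, a sodium-activated pore, averaged 2.25 ± 1.29 TPM in libraries 3 to 5 and 2.71 ± 0.664 TPM in WT.

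Inward rectifiers were sparse, with 2 of 15 genes expressed. Kcnj8, the pore of the ATP-sensitive channel of vascular smooth muscle and pericytes, measured 0.79, 0.13, 31.5, 17.4 and 9.32 TPM in the libraries labelled knockdown 1 to 5, against 16.5, 19.4 and 24.3 TPM in WT 1 to 3. Libraries 3 to 5 spread around WT, and its log2 fold change was 0.32 ± 0.39 (adjusted p = 0.581). Abcc9, which encodes the sulfonylurea receptor that pairs with this pore and is also a pericyte marker, measured 0.24, 0.05, 6.27, 10.3 and 15.7 TPM in those labelled knockdown, against 2.82, 2.5 and 4.11 TPM in WT. It rose in 6 libraries by 2.11 ± 0.34 (adjusted p = 0.00996), so pore and receptor differed in order over libraries 3 to 5: Kcnj8 was highest in 3 and Abcc9 in 5. Kcnj12, a strong inward rectifier, measured 0.09, 0, 3.39, 4.46 and 6.74 TPM in those labelled knockdown, against 12.3, 11.6 and 9.23 TPM in WT. All 5 were below WT, but the log2 fold change of -0.89 ± 0.28 missed the threshold in edgeR (adjusted p = 0.0517). It was called lower by DESeq2 (-0.88, adjusted p = 0.0176), by voom (-0.79, adjusted p = 0.02) and by limma on log2(FPKM + 1) (-0.81, adjusted p = 0.0482). Kcnj10, the rectifier of glia, averaged 0.16 ± 0.0854 TPM in libraries 3 to 5 and 0.213 ± 0.085 TPM in WT.

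Tandem-pore channels carry the resting potassium leak. Of 8 tested genes 1 rose and 1 fell in 6 libraries, close to the 11.1% and 9.37% of all genes. Kcnk3, an acid-sensitive leak channel (chr5:30588170-30625270), measured 0.78, 1.2, 18.1, 25.3 and 26.2 TPM in the libraries labelled knockdown 1 to 5, against 11.2, 16.9 and 14.9 TPM in WT 1 to 3. It rose in 6 libraries by 1.07 ± 0.21 (adjusted p = 0.0157), with 3 to 5 above every WT library and 1 and 2 far below. Kcnk5, a leak channel opened by alkaline pH (chr14:20140057-20181782), measured 1.32, 2.38, 3.5, 3.29 and 3.51 TPM in those labelled knockdown, against 8.71, 17.8 and 13.2 TPM in WT. All 5 were below WT, and it fell by 1.57 on the log2 scale in 6 libraries (SE 0.26, adjusted p = 0.0105). With all 8 libraries its log2 fold change was -1.76 ± 0.33 with an adjusted p of 0.137, the smallest of any channel gene. Its call was lost without library 4, WT 2 or WT 3, and that of Kcnk3 without library 4 or any 1 WT library. Kcnk1, a weakly rectifying leak channel, measured 0.05, 0.55, 16.7, 2.85 and 7.95 TPM in those labelled knockdown, against 6.22, 16.99 and 8.93 TPM in WT, with wide spread in both groups. Kcnk2, a stretch- and lipid-gated channel, averaged 3.63 ± 0.478 TPM in libraries 3 to 5 and 2.58 ± 1.15 TPM in WT, and voom alone called it (0.96, adjusted p = 0.0348). Kcnk10, of the same subfamily, averaged 0.257 ± 0.129 TPM in libraries 3 to 5 and 1.59 ± 0.739 TPM in WT. It was not called by edgeR and was called lower by limma on log2(FPKM + 1) (-0.77, adjusted p = 0.0411).

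Promoter windows of some called genes follow: Cacna1d, with the largest fold change of the 14, which has 2 annotated windows, then Kcnd3, which rose, and Kcna5 and Kcnk5, which had the largest falls. Each runs 5′ to 3′ on the gene's strand, from 250 bases before to 50 bases after an annotated start, from RefSeq on GRCm38.p6. Capitals mark matches to the TATA box (TATAAA), a SOX core (ACAAAG or ACAATG) or an E-box bound by proneural factors (CAGCTG or CAGGTG), each searched on both strands.
Cacna1d, chr14:30491107-30491406, minus strand: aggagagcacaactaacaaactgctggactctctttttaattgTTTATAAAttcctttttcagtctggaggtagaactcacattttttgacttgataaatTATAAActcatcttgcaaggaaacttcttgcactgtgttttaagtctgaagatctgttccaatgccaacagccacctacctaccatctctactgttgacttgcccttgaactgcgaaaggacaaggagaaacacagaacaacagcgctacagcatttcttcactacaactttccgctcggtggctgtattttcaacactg
Cacna1d, chr14:30353437-30353736, minus strand: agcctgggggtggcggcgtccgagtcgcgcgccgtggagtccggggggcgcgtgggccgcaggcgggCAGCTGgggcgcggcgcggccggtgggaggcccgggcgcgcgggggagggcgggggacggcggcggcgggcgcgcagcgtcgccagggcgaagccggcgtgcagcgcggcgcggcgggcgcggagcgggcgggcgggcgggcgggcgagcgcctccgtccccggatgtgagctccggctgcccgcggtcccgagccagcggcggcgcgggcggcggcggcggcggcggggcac
Kcnd3, chr3:105451640-105451939, plus strand: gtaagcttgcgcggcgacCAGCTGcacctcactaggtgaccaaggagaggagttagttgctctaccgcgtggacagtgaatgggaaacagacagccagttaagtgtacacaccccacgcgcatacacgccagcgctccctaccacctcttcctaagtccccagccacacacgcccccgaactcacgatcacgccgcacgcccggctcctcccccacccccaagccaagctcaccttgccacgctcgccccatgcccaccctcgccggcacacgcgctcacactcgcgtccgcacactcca
Kcna5, chr6:126535506-126535805, minus strand: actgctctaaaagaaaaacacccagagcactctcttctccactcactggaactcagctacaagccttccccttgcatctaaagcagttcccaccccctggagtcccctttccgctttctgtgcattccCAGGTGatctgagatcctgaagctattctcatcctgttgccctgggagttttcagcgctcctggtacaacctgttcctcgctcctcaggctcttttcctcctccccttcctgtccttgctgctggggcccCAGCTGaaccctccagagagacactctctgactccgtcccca
Kcnk5, chr14:20181733-20182032, minus strand: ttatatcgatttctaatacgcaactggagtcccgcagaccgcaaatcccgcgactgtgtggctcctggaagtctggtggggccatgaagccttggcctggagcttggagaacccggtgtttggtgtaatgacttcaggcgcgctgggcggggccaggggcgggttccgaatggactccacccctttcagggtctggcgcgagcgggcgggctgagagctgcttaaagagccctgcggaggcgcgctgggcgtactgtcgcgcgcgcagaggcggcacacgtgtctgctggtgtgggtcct

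The 2 windows of Cacna1d differed in kind. The upstream one held 3 TATA matches, of which 2 overlap on opposite strands, with 40.3% G or C and 4 CpG, and the downstream one held 1 E-box, 87.3% G or C and 63 CpG, against medians of 52.7% and 7.0 CpG over all windows. Which start the counted reads came from cannot be told from gene counts. Kcnd3 held 1 E-box, Kcna5 held 2, and Kcnk5 held no match to any of the 3 motifs. RefSeq windows matched 96 of the 131 channel genes, with 132 windows, and 12 of the 14 called genes (23 windows, with none for Kcnk3 and Cacna1g). Of those 132 windows 44.7% held an E-box, against 32.9% of all 32851 windows of the same length, 22% a SOX core, against 28.6%, and 5.3% a TATA box, against 13.6%. The windows were alike in length but not matched for base composition, whose part in these shares was not tested. A match is a run of letters and not a bound site.

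With all 8 libraries, 0 of 105 channel genes and 0 of 15411 genes tested passed an adjusted p of 0.05 by edgeR (0.0% of genes called). At an unadjusted p under 0.05, 7 channel genes were higher and 1 lower (6.67% and 0.952%, against 12.7% and 5.9% of all genes). DESeq2 called 7 higher and 1 lower (10.5% and 3.91% of all genes), and limma voom with quality weights 8 higher and 4 lower (12.6% and 11.6% of all genes). Both called Kcnk5 lower and Cacna1d, Kcng3, Kcnj16, Kcnd1 and Kcnk13 higher. Kcnd1, an A-type pore, measured 3.77, 2.07, 1.21, 1.39 and 4.15 TPM in the libraries labelled knockdown, against 1.01, 1.13 and 0.81 TPM in WT. It was above WT in all 5, with a log2 fold change of 1.87 ± 0.62 in 8 libraries (adjusted p = 0.189) and 1.51 ± 0.53 in 6 (adjusted p = 0.0761). Groups did not overlap for 3 higher (Kcnd1, Kcng3 and Kcnj16) and 16 lower channel genes (2.86% and 15.2%, against 10.8% and 11.9% of all genes). The median log2 fold change was -0.38 over channel genes and 0.07 over all genes, on a scale that moved to -0.17 for all genes without the composition factor and to -0.45 for channel genes.

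In the libraries labelled knockdown 1 and 2, which held leukocyte markers at 25100 and 21100 TPM, a small set of channel genes was high. Of the 57 genes expressed in WT, 46 and 40 were under 1 TPM there (80.7% and 70.2%, against 22.6% and 20.5% of all genes expressed in WT), and 15 and 13 had no count (26.3% and 22.8%, against 5.22% and 4.58%). In both libraries 45 were lower than in every other library (78.9%, against 44.1% of all genes expressed in WT), without matching for the level in WT. In the other direction, 9 channel genes were at 1 TPM or more in both and above all other 6 libraries (6.87%, against 12.4% of all genes of the table). Kcnab2, at 21.4 and 31.8 TPM in libraries 1 and 2, was highest of them. Kcna3, the delayed rectifier of lymphocytes and macrophages, measured 9.43, 13.0, 1.03, 0.53 and 0 TPM in the libraries labelled knockdown, against 3.18, 2.53 and 3.08 TPM in WT. In 6 libraries edgeR did not call Kcna3 (log2 fold change -2.11 ± 1.04, adjusted p = 0.173). Voom (-2.68, adjusted p = 0.0387) and limma on log2(FPKM + 1) (-1.12, adjusted p = 0.0219) called it lower there. Kcnk6, a leak channel of the weakly rectifying subfamily, measured 12.96, 10.97, 1.56, 3.08 and 1.97 TPM in those labelled knockdown, against 1.16, 2.4 and 0.69 TPM in WT. Kcnk13, a halothane-inhibited leak channel known from microglia, measured 7.75, 5.77, 0.91, 0.67 and 0.22 TPM in those labelled knockdown, against 0.09, 0.08 and 0.29 TPM in WT. Also in the set were Kcnn4, Kcng2, Kcnk12 and Cacna1f, the last at 1.96 and 1.57 TPM in libraries 1 and 2, against at most 0.23 TPM in the other 6. This set was chosen by its values in libraries 1 and 2, so its levels there are a description.

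**Figure D4:**
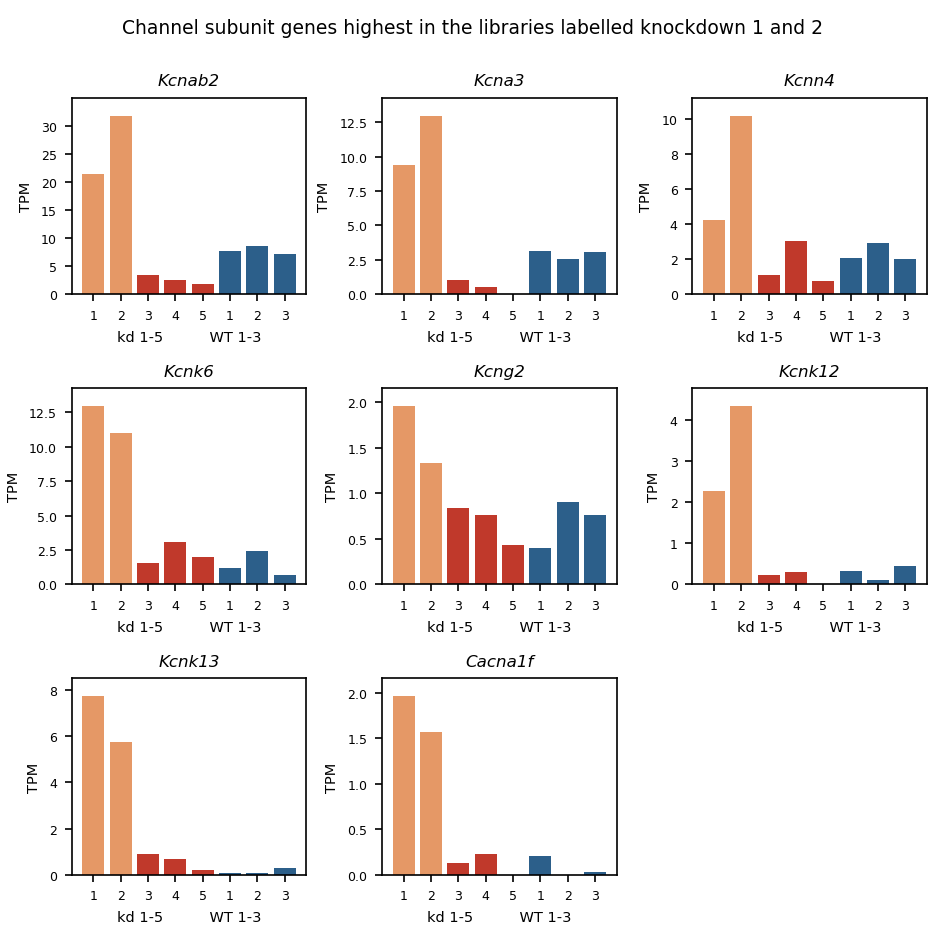
TPM in each library of 8 of the 9 channel genes at 1 TPM or more in the libraries labelled knockdown 1 and 2 and above the other 6 libraries, which the choice of genes fixes. Bars are orange for knockdown 1 and 2, red for 3 to 5 and blue for WT; Kcnab2 reaches 31.8 TPM and Kcnk13 7.75 TPM, and in Kcna3 libraries 3 to 5 are also below WT.

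Counts divided by FPKM give, after scaling by the library's total, the gene length that the authors' estimates used, and so show whether a gene's transcript mix was estimated differently between groups. For 54 channel genes with enough reads the ratio of this implied length, libraries 3 to 5 over WT, had a median of 1.0, and over 12449 genes the middle 90% lay between 0.909 and 1.18. Above 1.3 were Kcnip4 and Kcnt2 at 1.57, Cacng7 at 1.53, Kcnmb2 at 1.46 and Cacna2d1 at 1.42, which is 5 of 54, against 2.78% of all genes. Cacna2d1 had implied lengths of 6941, 6110 and 5834 bases in libraries 3 to 5, against 5054, 4123 and 4092 in WT, without overlap. Those of Kcnip4 were 6836, 11820 and 9952 bases in libraries 3 to 5, against 6673, 4699 and 6846 in WT, and library 3 was within the WT range. For these 5 genes the count scale and the length-scaled TPM disagree on the difference between groups, and which transcripts were present was not tested.

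**Figure D5:**
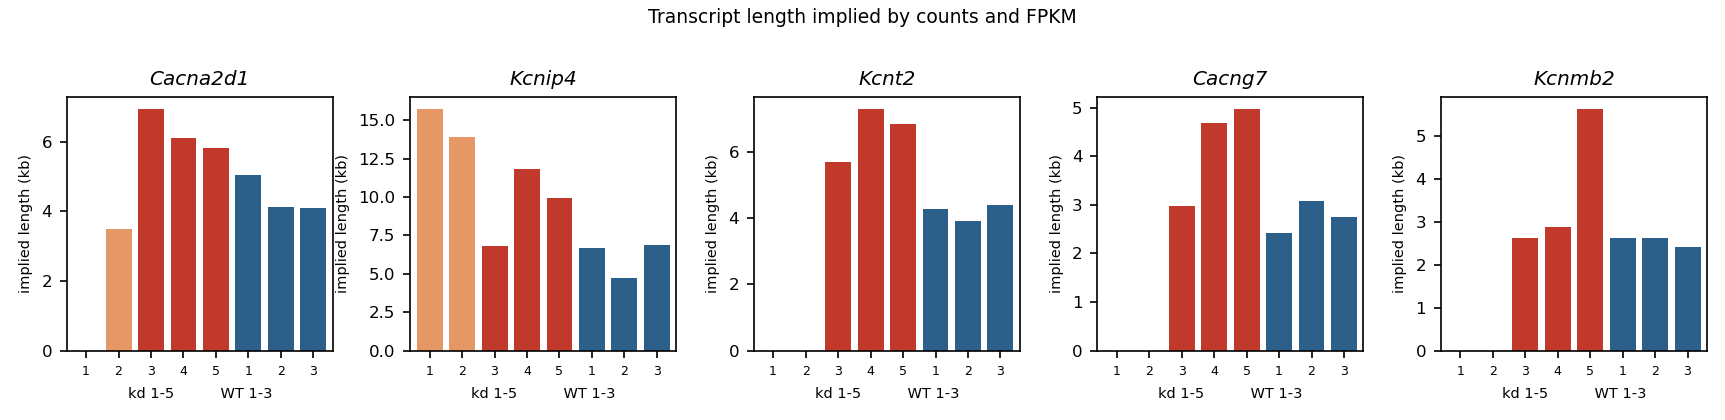
Implied gene length in kilobases (expected count over FPKM, scaled by the library's total) of the 5 channel genes with a ratio above 1.3, the libraries labelled knockdown left of WT. Colours are orange for libraries 1 and 2, red for 3 to 5 and blue for WT. A library under the limits of 30 counts or an FPKM of 0.3 has no bar; libraries 3 to 5 lie above WT in Cacna2d1 and Kcnt2 and overlap WT in Kcnip4.

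Genes that work with these channels were taken from a list of 48, of which 45 were in the table and 41 were tested in 6 libraries, with 6 called higher and 2 lower, against 11.1% and 9.37% of all genes tested. Beside Abcc9, the genes with the smallest p were Fgf13, Ank3, Fgf11, Hcn4 and Nfasc. Fgf13, an intracellular factor that binds sodium channel tails and microtubules, measured 1.03, 0.62, 28.5, 15.6 and 33.3 TPM in the libraries labelled knockdown 1 to 5, against 68.4, 68.2 and 66.8 TPM in WT 1 to 3. It fell by 1.15 on the log2 scale (SE 0.24, adjusted p = 0.018), and Nfasc, a cell adhesion molecule of the axon initial segment, by 0.99 (SE 0.29, adjusted p = 0.042). Fgf11, of the same family as Fgf13, rose by 1.1 ± 0.27 (adjusted p = 0.0265), and Ank3, the ankyrin that gathers sodium channels at the initial segment, by 1.23 ± 0.26 (adjusted p = 0.0184). Hcn4, a pacemaker channel pore, measured 0.08, 0.04, 0.68, 1.55 and 1.79 TPM in those labelled knockdown, against 0.5, 0.61 and 0.55 TPM in WT, and rose by 1.63 ± 0.46 (adjusted p = 0.0405). Without library 4 all 8 calls were lost, and for Abcc9 that was the only library whose loss ended it (adjusted p = 0.0568). Hcn4, Fgf11 and Nfasc also lost the call without library 5 or any 1 WT library. Fgf13 lost it without any 1 WT library, and Ank3 without WT 2 or WT 3. Hcn4 and Ank3 were not called on log2(FPKM + 1), nor Nfasc with voom.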

How the data were processed

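RNA of about 200 sorted cells a tube was measured in 8 libraries, 5 labelled Emb knockdown and 3 WT. Amplified cDNA came from Smart-seq2, which marks no strand and carries no molecular identifiers, and transposon libraries were sequenced as DNA nanoballs, per the labels' protocols. The submitters' processing notes name GRCm38.p6 as build and HISAT and Bowtie2 as tools, and the counting tool and annotation are not given in the sources used here. The authors deposited raw expected counts, partly not whole. FPKM, scaled to length and depth, was computed by the authors, as the file headers state. TPM, also deposited, summed to 1000000 in a library. The authors' 8 columns of group means and their normalised counts were not used, and 0 columns belonged to other series.

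Expected counts were rounded, filtered with filterByExpr, TMM-scaled and fitted by the robust quasi-likelihood test of edgeR 4.0.16 in R 4.3.3, two-sided, over all genes, with a Benjamini-Hochberg adjusted p under 0.05 as threshold. Both comparisons were fitted: all 8 libraries, and 6 libraries without those labelled knockdown 1 and 2. The channel genes, the lists and this choice were made with earlier results of these data known. Alternatives used DESeq2 1.42.0, limma 3.58.1 (voom with quality weights, and log2(FPKM + 1)), other scalings, no filter, a replicate block and each library left out. The fits were tested on simulated data. Positions and promoter windows came from RefSeq and exon overlaps from the GENCODE annotation of the same build. Counting error alone is covered by the limit for a count of 0. Genes were named by rule: the 3 highest of each class in WT, those called in 6 libraries, those under 1 TPM in WT and above it in libraries labelled knockdown, a set list of well-known members, and the partner genes with the 6 smallest p. Others named were chosen after their values were seen. Some channel genes are counted but not reported here by name or drawn.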

Additional observations from a re-analysis of the deposited data

Results flagged for a closer look

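In 2 of 56 named channel genes 1 library stood far from the other libraries labelled knockdown, by a gap above 0.71 of the range. By chance that limit marks about 1 group in 20 if all 5 libraries are alike. Libraries 1 and 2 stood apart from 3 to 5, so that rate does not apply here. Cacnb2 measured 2.24 TPM in library 5, against 0.59 TPM in the next, a gap of 0.778 of the range. Scn7a, a sodium channel alpha gene, measured 0.01 TPM in library 3 and 0 in the other 4, so its gap of 1.0 of the range rests on a level too low to read.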

How the results depend on the processing

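With 8 libraries edgeR called 0 genes, against 2220 with DESeq2 and 3720 with voom, and 0 channel genes, against 8 and 12. Leaving out each library gave 0 to 2 genes (2 without library 3) and 0 channel genes each time. With 6 libraries edgeR called 3090 genes and 14 channel genes. There voom called 6875 and 32 and DESeq2 4538 and 18. Leaving out each library gave 180 to 5982 genes and 0 to 24 channel genes, lowest without the library labelled knockdown 4 and highest without 3. No call changed sign. Scaling by size factors, no composition factor, no filter and limma on log2(FPKM + 1) gave 13 to 15 called channel genes in 6 libraries. A limit of 2 TPM in place of 1 left 37 expressed channel genes, against 57, and the other limits 46 to 79. With each WT library left out it was 54 to 61 at 1 TPM. The count of channel genes without overlap was 31 in 6 libraries, and 30 in TPM in place of scaled counts, a check chosen after the data were seen. Single genes were followed for the 14 called in 6 libraries and, in 8 libraries, for the 8 that DESeq2 called. Over both comparisons 214 of their values kept their side of the threshold, 57 lost the call and 14 gained it. These genes were chosen by such calls, which fixed the gains with DESeq2, so the tally is no rate for channel genes. Deviations from the group mean correlated at -0.0727, 0.128 and -0.0285 for same-numbered libraries, against -0.175 to 0.168 for differing numbers. Libraries 1 and 2 stood apart from the others labelled knockdown, and that split enters each deviation in that group. The check therefore cannot decide whether the numbers pair the libraries. With a replicate block in the fit of 8 libraries 0 genes and 0 channel genes were called. No paired analysis was possible because only number 3 is shared between the groups of the 6 libraries. The causes of these changes were not tested. Of the 131 channel genes 74 were under 1 TPM in WT, and 32 of the 131 were not tested in 6 libraries. How far sequencing depth limited the low genes was not tested.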
